A study of Homo sapiens with 3 samples.

Results

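FABP7 (ENSG00000164434), the brain-type fatty acid-binding protein gene, was followed as 1 gene of 22499 with a symbol in the count tables, across 19237 annotated cells of the CAMA-1 cell line. It was chosen by its measured values, as a gene that stood out in these same data as nearly confined to the ribociclib-sensitive lineage. Its levels, and every comparison of cells classed by FABP7, are given as a description with no test. CAMA-1 is a luminal, estrogen receptor-positive breast cancer line, and ribociclib is an inhibitor of the cyclin-dependent kinases CDK4 and CDK6. Spheroids of 2000 plated cells held Venus-labelled sensitive cells, mCherry-labelled cells of the CAMA-1_ribociclib_resistant lineage, or both at 50% each. All of them received 1 uM ribociclib (listed as DMSO + 1 uM ribociclib) and were harvested after 11 days, so no untreated group enters. Each of the 3 conditions was 1 single-cell library, and the resistant lineage was 1 derived lineage of 1 cell line. The annotated cells form 4 populations, sensitive monoculture with 3329 cells, resistant monoculture with 7557, and the sensitive (2059) and resistant (6292) cells of the coculture, which the authors separated by the label transcripts.

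FABP7 belongs to the family of small cytoplasmic proteins that carry long-chain fatty acids and retinoids. It binds polyunsaturated fatty acids and is best known from radial glia, astrocytes and the developing brain, and it is also expressed in a subset of breast cancers and melanomas. Fatty acids bound by these proteins are handed to membranes, to mitochondrial oxidation, to lipid droplets and to nuclear receptors of the PPAR family.

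The gene lies on chromosome 6 of GRCh37 from 123100861 to 123105219 on the plus strand, in 4 exons. The 3′ libraries count the end of its transcript, which is in exon 4 (123104862 to 123105219). Its promoter is shown because the gene was abundant in 1 lineage and near 0 in the other, and because factors reported to act on it are compared below. These are the 250 bases before the start site from RefSeq (GRCh38.p14, chr6:122779466-122779715, plus strand), with the letters of the motifs found in capitals:

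FABP7 promoter: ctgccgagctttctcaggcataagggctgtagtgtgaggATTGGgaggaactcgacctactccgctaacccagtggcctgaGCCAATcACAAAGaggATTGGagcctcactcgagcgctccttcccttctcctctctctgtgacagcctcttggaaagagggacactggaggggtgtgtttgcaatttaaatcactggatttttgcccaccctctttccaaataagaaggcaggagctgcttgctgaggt

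Both strands were searched. The CCAAT box was found 3 times, between positions -211 and -149 from the start site, and 11240 of the 35116 RefSeq promoters of this length held it at least once. Overlapping the second of these was 1 arm of a nuclear factor I site (TTGGC, read on the minus strand, in 40.8% of promoters). A SOX motif (ACAAAG) followed it and was present in 13.7% of promoters. Not in this window were the RBPJ motif (TGGGAA, in 20.8% of promoters), the POU octamer (ATTTGCAT, in 1.63%), the nuclear receptor arm (AGGTCA, in 12.1%), the TFAP2 motif (GCCNNNGGC, in 19.8%), the TATA box (TATAAA, in 10.7%), the Sp-type GC box (GGGCGG, in 42.6%) and the hypoxia core (ACGTG, in 18.5%). The nuclear factor I palindrome (in 0.0285% of promoters) and the direct repeat bound by PPAR and RXR (in 0.0171%) were not there either. A match is a match of letters only.

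FABP7 was at 1398 CPM (95% exact Poisson interval 1391 to 1406) in sensitive monoculture cells, rank 101 of 16189 detected genes. CPM is the gene's unique molecular identifiers (UMIs, 1 for each captured transcript end) per 1000000 UMIs of the population's annotated cells. In sensitive coculture cells it was at 289 CPM (285 to 293), which is 4.84-fold lower (4.77 to 4.91). In resistant coculture cells it was at 14.4 CPM (13.9 to 15.0), and in resistant monoculture cells at 0.808 CPM (0.705 to 0.923, from 219 UMIs in 7557 cells). No neighbours in this order had overlapping intervals. These intervals cover counting error only, and with 1 library per condition the difference between libraries has no replicate check.

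Folds are given here on plain CPM, and log2 ratios on the log2(CPM + 1) scale, where the added 1 makes the difference of low values smaller. Only log2 ratios between phases, and of the FABP7 level in FABP7-high cells, are on plain CPM. Between monocultures FABP7 was 1729-fold lower in resistant cells on plain CPM (1515 to 1984). On the log2(CPM + 1) scale the ratio was -9.60, the lowest of 12970 genes tested, of which 4.11% were at least 2-fold lower and 2.17% at least 2-fold higher. Within the coculture library the log2 ratio was -4.23, and plain CPM was 20.03-fold lower in resistant cells (19.3 to 20.8), with 1 of 12774 genes lower still, 1.3% of genes at least 2-fold lower and 0.462% at least 2-fold higher. Sensitive coculture over sensitive monoculture gave -2.27, with 6 of 12327 genes lower still, 1.04% of genes at least 2-fold lower and 1.53% at least 2-fold higher. Resistant coculture over resistant monoculture had a log2 ratio of 3.09, the highest of 13156 genes, of which 0.038% were at least 2-fold higher. On plain CPM this was 17.9-fold (15.6 to 20.6), and with a pseudocount of 10 CPM the log2 ratio was 1.18. The UMIs behind it were mostly single UMIs per cell and those of 73 cells, as described below. These 4 comparisons share populations and are not independent of each other. The median log2 ratio of all genes was between -0.07 and 0.03 in them.

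Cells with at least 1 FABP7 UMI made up 77.95% of sensitive cells in monoculture (95% exact binomial interval 76.5 to 79.3) and 56.9% of them in coculture (54.7 to 59.0). Among resistant cells they made up 18.2% in coculture (17.3 to 19.2) and 1.79% in monoculture (135 of 7557 cells). The median cell of these populations held 27622, 34056, 30686.5 and 35443 UMIs, so the population with the most positive cells was the shallowest. Thinned to 5000 UMIs per cell, with no cell left out, the shares were 54.3%, 35.9%, 4.12% and 0.357%.

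In monoculture, sensitive cells were split into cells with much FABP7 and cells with almost none. In sensitive monoculture 734 cells held no FABP7 UMI, 596 held 1 and 1449 held 10 or more, while only 150 held 3 to 4 and 123 held 5 to 9. A cell with at least 2 FABP7 UMIs per 10000 of its UMIs is called FABP7-high below, a limit placed in the gap of this distribution after it was seen. By it 1556 of 3329 sensitive monoculture cells (46.7%, 45.0 to 48.5) and 634 of 2059 sensitive coculture cells (30.8%, 28.8 to 32.8) were FABP7-high. The classes are ranges of 1 value and not cell types: 244 and 295 of these cells lay between 1 and 3 per 10000.

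FABP7-high cells carried 98.7% of all FABP7 UMIs of sensitive monoculture and 92.9% of those of sensitive coculture. Their median was 19.7 FABP7 UMIs per 10000 in monoculture (10th to 90th percentile 4.72 to 61.5, up to 178) and 5.36 in coculture (2.46 to 16.8, up to 68.9). Summed, they stood at 2735 CPM (2720 to 2750) in monoculture and 817 CPM (805 to 828) in coculture. FABP7-low cells stood at 37.4 CPM (35.7 to 39.2) and 30.5 CPM (29.0 to 32.1). So in coculture fewer sensitive cells were FABP7-high, and those that were held less of it (a log2 ratio of -1.74). The size of both differences depends on the limit, which lies in a gap in monoculture only. In coculture 165 cells lay from 1 to 2, 213 from 2 to 4 and 212 from 4 to 8 per 10000. With limits of 1 and 5 per 10000 the FABP7-high share was 52.4% and 41.5% in monoculture and 38.8% and 16.7% in coculture, and the log2 ratio was -1.88 and -1.26. The level of FABP7-low cells is held down by the limit itself. MGP, a matrix protein gene and the mirror of FABP7 between these lineages, differed between the classes in summed CPM in both libraries. It was at 317 CPM in FABP7-high and 492 CPM in FABP7-low cells of sensitive monoculture, which holds no resistant cells, and at 740 and 1189 CPM in those of sensitive coculture. The medians of single cells lay nearer to each other. They were 0.344 and 0.367 MGP UMIs per 10000 in monoculture, so its sums were carried by few cells, and 3.38 and 4.08 in coculture. In coculture 102 of 634 (16.1%) and 345 of 1425 (24.2%) of FABP7-high and FABP7-low sensitive cells held at least 10 MGP UMIs per 10000. Its part in the lower coculture share was not tested. FABP7-low resistant cells of the same coculture library were at 6.79 CPM. The background of free RNA in the sensitive monoculture library was not measured, since that library holds no other lineage.

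**Figure D1:**
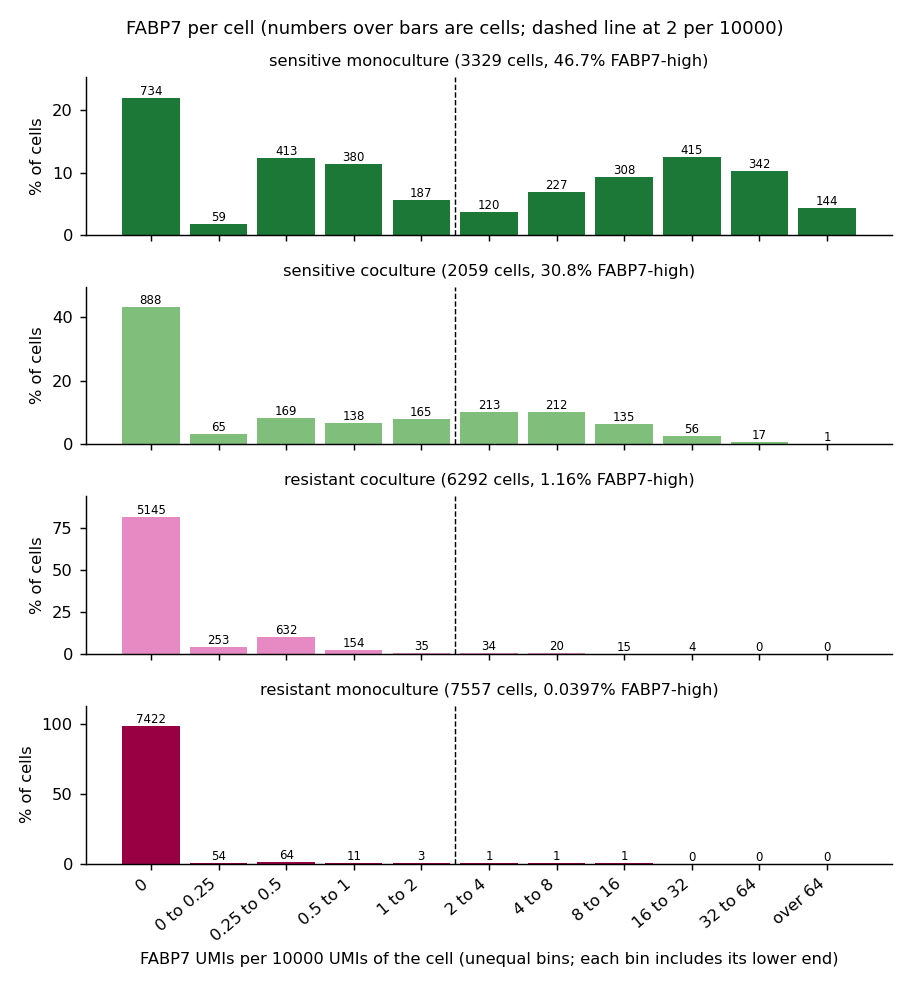
Percent of cells (y axis of each panel) by FABP7 UMIs per 10000 UMIs (x axis, unequal bins) in the 4 populations, with the number of cells over each bar and the FABP7-high limit dashed. Sensitive monoculture has a second peak from 8 to 64 per 10000 that is lower and nearer to the limit in sensitive coculture, and in resistant coculture 73 cells lie past the limit.

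The FABP7 classes were set against the label transgene, RNA quality and depth. Among sensitive monoculture cells with 0, 1, 2 to 3 and 4 or more mVenus UMIs, 45.0%, 47.1%, 47.0% and 50.0% were FABP7-high, with median depths from 25647 to 30343 UMIs. In sensitive coculture it was 27.6% (24.7 to 30.6) at 1, 33.9% (30.6 to 37.3) at 2 to 3 and 32.5% at 4 or more mVenus UMIs, and 59.5% of FABP7-high and 52.6% of FABP7-low cells held at least 2. In monoculture the median mitochondrial share was 20.9% in both classes. FABP7-high cells there were deeper, with a median of 30426 UMIs against 25309, and more of them had a scrublet doublet score over 0.25 (2.57% against 0.846%). In coculture the medians were 36740 and 32718 UMIs and the doublet shares 2.84% and 2.88%. The part of depth and of the label counts in the classes was not tested.

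By cell cycle phase, taken from the deposited annotation, FABP7-high cells in sensitive monoculture were 44.5% of G1 cells (42.7 to 46.3), 65.3% of S cells (57.8 to 72.3) and 64.7% of G2M cells (57.5 to 71.5). In sensitive coculture they were 29.0% of G1 cells (26.4 to 31.7), 38.0% of S cells (33.5 to 42.6) and 28.1% of G2M cells (24.0 to 32.4). The level per FABP7-high cell followed another order. Its median was 21.2, 18.8 and 13.0 per 10000 in G1, S and G2M cells of sensitive monoculture, and 5.98, 5.16 and 4.44 in those of sensitive coculture. Summed over all cells of a phase, FABP7 was at 1406, 1493 and 1210 CPM in monoculture and at 313, 313 and 212 CPM in coculture. Seen from the classes, 15.3% of FABP7-high (13.5 to 17.2) and 7.22% of FABP7-low sensitive monoculture cells (6.06 to 8.52) were in S or G2M, against 47.9% (304 of 634 cells) and 43.3% (40.7 to 45.9) in coculture. Cycling cells were also deeper, with median UMIs of 39100.5 in S and 36758 in G2M against 26713 in G1 of sensitive monoculture.

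The clusters of the deposited annotation, given by their number at resolution 0.8, were built on the expression of these cells, so their differences are no test. In sensitive monoculture FABP7-high cells were 53.7% of the 1945 cells of cluster 4 (1775 CPM), 55.4% of cluster 3, 62.9% of cluster 7, 22.6% of the 681 cells of cluster 8 (537 CPM) and 39 of the 156 cells of cluster 12 (450 CPM). In G1 cells alone, which made up nearly all of clusters 8 and 12, the shares were 53.0% in cluster 4, 22.7% in cluster 8 and 25.2% in cluster 12. Clusters 8 and 12 were shallower, at 21423 and 24248.5 UMIs per median cell against 29523 in cluster 4. In sensitive coculture the share was 30.8% of 1087 cells in cluster 3, 33.7% of 617 in cluster 7 and 57.1% of 84 in cluster 4. The 84 coculture cells in cluster 4 were at 1052 CPM, nearer to the monoculture level of that cluster than to the 276 CPM of coculture cells in cluster 3. Within cluster 3 the FABP7 level was 948 CPM in monoculture and 276 CPM in coculture, and within cluster 7 it was 1211 and 273 CPM.

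**Figure D2:**
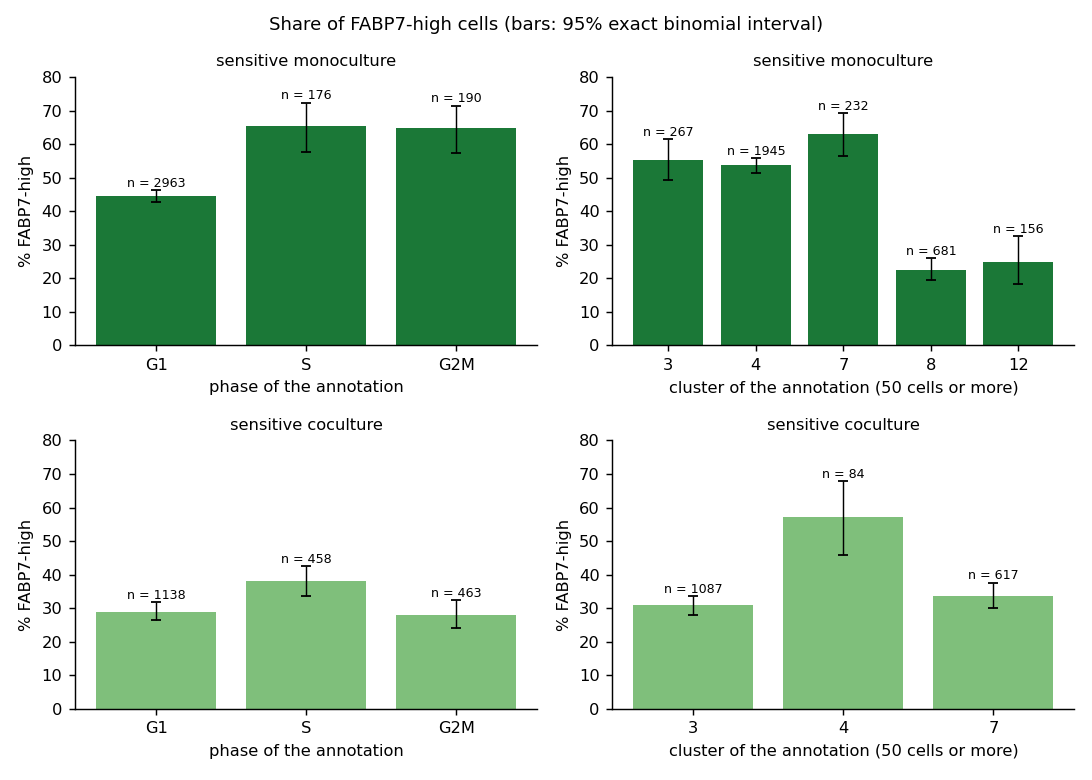
Percent of FABP7-high cells (y axis) by annotated phase and by annotated cluster of at least 50 cells (x axes) in sensitive monoculture (upper) and sensitive coculture (lower), with 95% exact binomial intervals and the number of cells. Among clusters, monoculture shares run from 22.6% in cluster 8 to 62.9% in cluster 7, and coculture shares are lower than those of monoculture in all 3 phases.

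Genes of chromosome 9 were lower in FABP7-high cells of both libraries, a pattern noticed in the data and described without a test. Among the 7480 genes found in at least 20% of sensitive monoculture cells, the 5 with the lowest Pearson correlation with FABP7 over the 3329 cells were RPL7A (r = -0.39), EDF1, PHPT1, MRPL41 and SSNA1 (-0.25), and all 5 lie on chromosome 9. Over the 2059 sensitive coculture cells their r was between -0.21 and -0.49. RPL7A, a protein of the large ribosomal subunit, was at 1541 CPM in FABP7-high and 2109 CPM in FABP7-low monoculture cells, and at 1457 and 2151 CPM in coculture. These correlations are over cells of 1 library that share depth and free RNA.

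Over all 310 chromosome 9 genes of this set, the median log2 ratio of FABP7-high over FABP7-low cells was -0.29 in monoculture and -0.22 in coculture. In monoculture 299 of the 310 were lower, in coculture 295, and 288 were lower in both. Over all 7477 genes with a position, 56.5% were lower in monoculture, 47.1% in coculture and 2755 genes in both. The medians of the other chromosomes lay between -0.06 and 0.05 in monoculture and between -0.04 and 0.08 in coculture. Among these, chromosome 6 was lowest and chromosome 7 highest in both libraries. Of 359 chromosome 7 genes, 40.1% were lower in monoculture and 26.2% in coculture. In windows of 10 Mb with at least 20 genes, the 5 windows of chromosome 9 had the 5 lowest medians of 140 in monoculture, from -0.35 to -0.24, and again in coculture, from -0.33 to -0.10. The lowest of them, from 130 to 140 Mb of GRCh37, held 98 genes, of which 95 were lower in monoculture and 97 in coculture. FABP7 itself is on chromosome 6, whose other genes had medians of -0.06 and -0.04. By contrast, at least 2-fold differences between the classes were rare: 0.264% of 11748 genes tested in monoculture and 0.156% of 11505 in coculture. Of all genes tested, 0.136% were higher and 0.128% lower by that much in monoculture, and 0.104% higher and 0.0522% lower in coculture. The pattern was made of many small differences of 1 sign.

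Per cell, the share of nuclear UMIs from chromosome 9 genes was computed from genes under 500 CPM, with FABP7 left out. Its median was 3.49% in FABP7-high and 4.43% in FABP7-low cells of sensitive monoculture, and 3.36% and 4.12% in those of sensitive coculture. The difference of -0.94 percentage points in monoculture was -0.94 in G1 cells alone and -0.93 in cells with UMI totals between the quartiles, and the -0.76 points of coculture were -0.77 and -0.78. Sensitive cells formed 2 groups in this share in each library, parted near 4.0% in monoculture and between 3.8% and 4.0% in coculture. The limit used, 3.8%, lies at the low edge of this gap. In monoculture 1538 cells (46.2%) lay below 3.8%, and 76.2% of them (74.0 to 78.3) were FABP7-high, against 21.4% (19.6 to 23.4) of the 1791 cells at or above it. In coculture 1092 cells (53.0%) lay below, and 51.6% of them (48.6 to 54.7) were FABP7-high, against 7.24% (5.69 to 9.06) of 967 cells.

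FABP7 was lower in coculture on both sides of this limit. Below it, FABP7 was at 2314 CPM in monoculture and 480 CPM in coculture, and at or above it at 480 and 53.8 CPM. The share of cells below the limit was 46.2% in monoculture and 53.0% in coculture. Its part in the coculture level of FABP7 was not tested. The difference between the sides was also present within clusters. In the monoculture clusters 3, 4, 7, 8 and 12, FABP7-high cells were 83.5%, 81.5%, 78.8%, 49.3% and 52.3% of the cells below the limit, and 14.7%, 27.6%, 23.9%, 10.5% and 14.3% of those at or above it. Clusters 8 and 12 thus had lower shares than cluster 4 on each side, and also fewer cells below the limit (31.3% and 28.2%, against 48.4% in cluster 4). In the coculture clusters 3, 4 and 7 the shares were 50.9%, 76.4% and 54.2% below and 7.21%, 20.7% and 7.09% at or above.

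The phase calls of the annotation, which rest on expression, were set beside both splits. In monoculture the part of cells called S or G2M was 17.7% (15.6 to 20.1) of FABP7-high and 12.6% (9.35 to 16.4) of FABP7-low cells below the limit, and 7.81% (5.33 to 11.0) and 5.83% (4.66 to 7.18) at or above it. In coculture the corresponding values were 49.3%, 48.7%, 37.1% and 40.1%. On each side of the limit in monoculture this part was larger in FABP7-high than in FABP7-low cells. The intervals of the classes overlapped there, which does not show that the classes are alike. Depth moved with these groups: in monoculture the median was 32032 UMIs in FABP7-high cells below the limit and 26444 at or above it, and 25892 and 25107 UMIs in FABP7-low cells. Its part in the phase calls was not tested. In resistant cells the chromosome 9 share had medians of 3.90% in coculture and 3.96% in monoculture, and from the 10th to the 90th percentile it ran from 3.53% to 4.44% and from 3.58% to 4.47%. No measurement of DNA was analysed here.

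**Figure D3:**
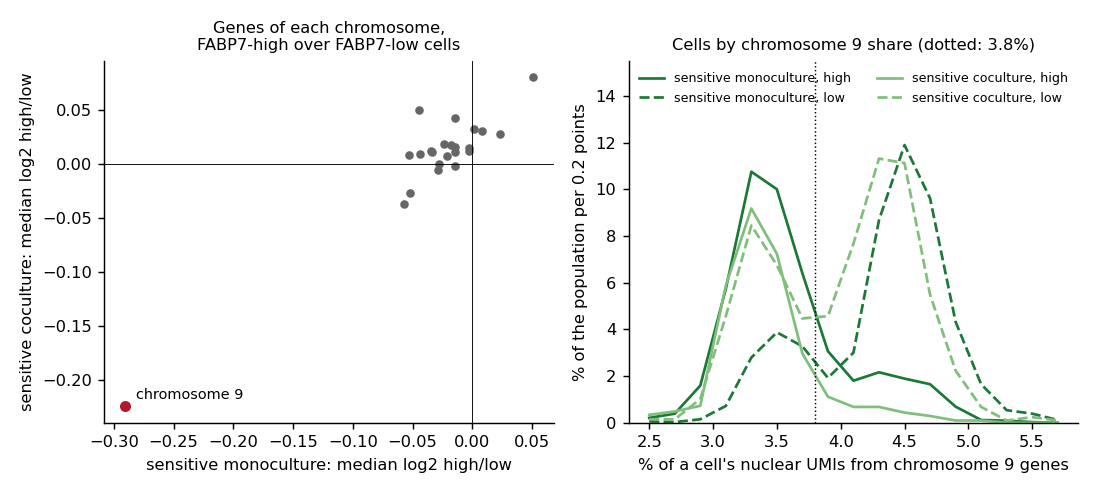
Left, the median log2 ratio of FABP7-high over FABP7-low cells for the genes of each chromosome, sensitive monoculture on the x axis and sensitive coculture on the y axis. Right, the percent of each sensitive population (y axis) by the share of nuclear UMIs from chromosome 9 genes (x axis), for FABP7-high (solid) and FABP7-low (dashed) cells. Chromosome 9 lies at -0.29 and -0.22, away from all others, and FABP7-high cells peak below 3.8% while FABP7-low cells have a peak on each side.

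The 5 genes with the highest correlation with FABP7 over sensitive monoculture cells were ANKRD37 (r = 0.37), ADIRF, RHOBTB3, CRABP2 and RNASEH2C (0.27), on 5 different chromosomes, and their r in coculture was between 0.25 and 0.40. ANKRD37, a gene induced in hypoxia, was at 208 CPM in FABP7-high and 101 CPM in FABP7-low monoculture cells, and at 45.6 and 21.5 CPM in coculture, so it kept a log2 ratio of 1.04 and 1.05 while its level differed. ADIRF, a small adipogenesis-related factor, was at 1454 and 973 CPM in monoculture and at 1622 and 1048 CPM in coculture. Taken the same way over 27 groups of at least 50 cells of 1 population and cluster, the genes most like FABP7 were LINC02303 (r = 0.96), AK3, FAT1, NBPF1, LIMCH1, TMPRSS3, CKAP4 and TSPAN5 (0.93). These groups share 3 libraries and mostly separate the lineages, since over the 8 sensitive groups alone the same r were 0.34 to 0.74.

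Of the FABP family, 2 members were higher in FABP7-high cells by at least 2-fold in monoculture. In monoculture CRABP2, a carrier of retinoic acid, was at 270 CPM in FABP7-high and 124 CPM in FABP7-low cells. FABP5, the epidermal fatty acid-binding protein, was at 30.2 and 13.5 CPM. Both exceeded 2-fold, as did 0.136% of all genes tested, and CRABP1, at 352 and 277 CPM, was the third member tested and did not. In coculture CRABP2 was at 321 and 182 CPM, FABP5 at 32.9 and 21.4 CPM and CRABP1 at 423 and 346 CPM, with none of the 3 at 2-fold. Reads of FABP5 may be shared with its processed copies elsewhere in the genome. Between the lineages all 3 carriers had lower values in resistant cells, like FABP7 but by less, with log2 ratios between monocultures of -0.41 for CRABP2, -0.79 for FABP5 and -0.65 for CRABP1. Within the coculture these were -0.73, -0.94 and -0.59, and none of them reached 2-fold. With coculture, where FABP7 was lower in sensitive cells, the 3 carriers had slightly higher values there: CRABP2 was at 198 CPM in monoculture and 227 CPM in coculture, CRABP1 at 315 and 372 CPM and FABP5 at 21.9 and 25.2 CPM. In resistant cells CRABP2 was at 148 CPM in monoculture and 137 CPM in coculture, CRABP1 at 199.98 and 247 CPM and FABP5 at 12.2 and 12.6 CPM. FABP1, FABP2, FABP4, PMP2, FABP9 and FABP12 were at or near 0 in all populations, and FABP3 and FABP6 reached at most 0.0935 and 0.677 CPM.

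Genes that take up, activate, burn, store or desaturate fatty acids, with nuclear receptors and factors reported at the FABP7 promoter, made up 7 lists with the FABP family. Of their 103 genes besides FABP7, 77 had at least 50 UMIs over the monocultures, and 3 were at least 2-fold higher and 6 at least 2-fold lower in resistant cells (6.28% of all genes were 2-fold apart). In the uptake and activation list DBI, the acyl-CoA-binding protein, was at 1097 CPM in sensitive and 411 CPM in resistant monoculture, followed by ACSL1 (28.9 and 19.4 CPM) and SLC27A3 (39.7 and 56.5 CPM). Of the oxidation genes HADHB was at 80.7 and 33.2 CPM and its partner subunit HADHA at 105 and 56.1 CPM. Of the storage genes HILPDA (115 and 68.5 CPM), MGLL, the monoglyceride lipase (98.6 and 59.8 CPM), and ABHD5 (15.8 and 9.70 CPM) were furthest apart among those at 10 CPM or more.

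The list of fatty acid elongases and desaturases held the largest difference of these lists. ELOVL2, an elongase of very long polyunsaturated chains, was at 35.5 CPM in sensitive monoculture and 32.7 in sensitive coculture, against 7.18 and 8.69 CPM in resistant cells of the same cultures. The desaturases went the other way between monocultures. FADS1 was at 4.11 CPM in sensitive and 15.3 CPM in resistant monoculture, and SCD at 19.5 and 42.5 CPM. In the coculture they were at 12.9 and 43.8 CPM in sensitive and 13.6 and 37.3 CPM in resistant cells. Of the PPAR list RXRA (20.02 and 16.03 CPM between monocultures), PPARGC1B and RXRB differed by less than 2-fold, ANGPTL4 was at 2.99 and 0.724 CPM, and PPARG was at most at 0.343 CPM. Of 20 factors reported at the FABP7 promoter, TFAP2A was at 166 CPM in sensitive and 73.8 CPM in resistant monoculture, NFIB at 119 and 57.1 CPM and TFAP2C at 30.3 and 47.3 CPM. The brain factors POU3F2, POU3F3, PAX6 and SOX10 were at most at 0.0727 CPM, and SOX2 at most at 0.14 CPM.

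Between sensitive coculture and monoculture 4 of 74 list genes were 2-fold apart (2.56% of all genes), namely MGLL at 41.0 and 98.6 CPM, PLIN5 at 6.35 and 2.44 CPM and the desaturases above. Between the resistant populations none of 77 was (0.038% of all genes), and within the coculture library 1 of 74 was (1.76% of all genes), ELOVL2. From 1.5-fold on, 14 of 74 list genes differed between the sensitive populations (11.0% of all genes), 23 of 77 between monocultures (19.2%), 12 of 74 within the coculture (6.14%) and none of 77 between the resistant populations (0.699%). Between FABP7-high and FABP7-low cells 2 of 70 list genes were 2-fold apart in monoculture (0.264% of all genes) and none of 68 in coculture (0.156% of all genes). The 3 largest negative log2 ratios among these list genes in monoculture at 10 CPM or more were those of RXRA (-0.72), AGPAT2 (-0.64) and ELOVL2 (-0.56). RXRA and AGPAT2 are on chromosome 9, as is NFIB (-0.34), and all 6 tested list genes of that chromosome were lower in FABP7-high cells of both libraries.

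Next to FABP7 on chromosome 6, SMPDL3A, an acid sphingomyelinase-like enzyme that starts at 123110194, was at 28.4 CPM in sensitive and 7.48 CPM in resistant monoculture, and at 7.17 and 9.67 CPM in the sensitive and resistant cells of the coculture. In FABP7-high and FABP7-low monoculture cells it was at 31.5 and 25.2 CPM. On the other side PKIB was between 91.8 CPM in sensitive monoculture and 140.1 CPM in resistant coculture, and SERINC1 between 15.9 CPM in resistant and 29.9 CPM in sensitive monoculture. HSF2 and TBC1D32 stayed between 4.28 and 4.87 CPM and between 1.48 and 1.71 CPM, and GJA1, CLVS2, TRDN, NKAIN2 and RNF217 were under 1 CPM.

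The label of the cells was checked on marker lists. All 7 luminal markers (ESR1, GATA3, FOXA1, KRT8, KRT18, KRT19 and EPCAM) were at 14.2 CPM or more in every population. Of 7 neural, glial or melanocytic markers, types also known for FABP7, 5 were under 1 CPM everywhere, GFAP and S100B were at or near 0, NES reached 1.00 CPM and PMEL 5.49 CPM. Basal, fibroblast, blood and endothelial markers reached at most 3.58, 3.61, 1.06 and 0.291 CPM.

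Most resistant coculture cells held no FABP7 UMI or 1, and a tail with no gap reached far above. Of the 6292 cells, 5145 held no FABP7 UMI, 927 held 1, 95 held 2, 39 held 3 to 4, 26 held 5 to 9 and 60 held 10 or more. FABP7 spread evenly over cells in proportion to their UMIs, at the 6.40 CPM that fits the number of cells at 0, would give 1026 cells at 1, 112 at 2, 9.31 at 3 to 4 and 0.0309 at 5 to 9. The observed numbers at 1 and 2 lay slightly under that spread, and from 3 UMIs on they lay above it. Fitting the cells at 0 fixes the number of positive cells, so an excess from 3 UMIs on leaves fewer at 1 and 2. The 60 cells with 10 or more UMIs held 50.3% of the FABP7 UMIs of this population. By the limit of 2 per 10000 there were 73 FABP7-high cells, 1.16% (0.910 to 1.46), of which 34 lay between 2 and 4 per 10000, with a median of 4.19 per 10000 and summed 584 CPM (556 to 614), against 817 CPM in FABP7-high sensitive coculture cells. In all, 53 cells lay near this limit, between 1 and 3 per 10000. By a limit at the median of all sensitive coculture cells, which 1 UMI reaches in many cells, 596 cells passed.

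**Figure D4:**
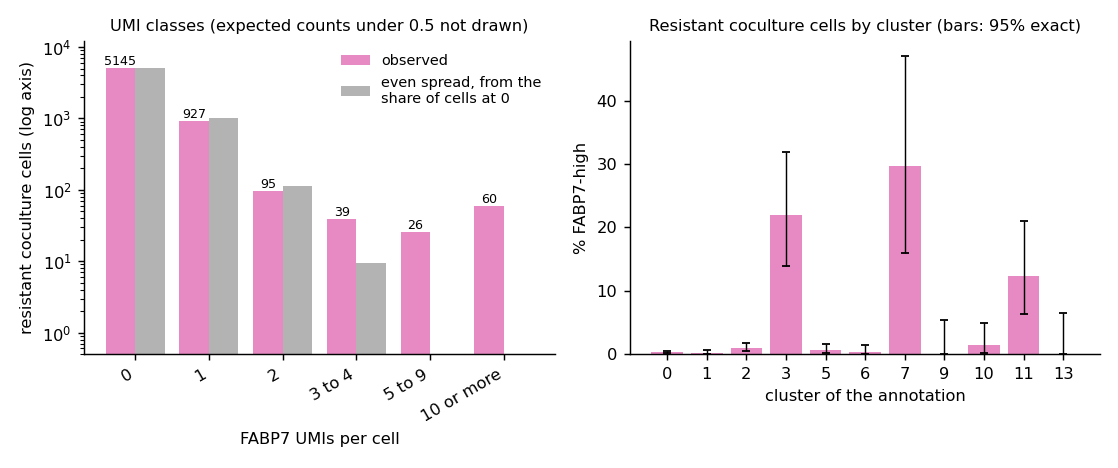
Left, numbers of resistant coculture cells (log axis) by FABP7 UMIs per cell, observed and for an even spread set by the share of cells at 0. Right, the percent of FABP7-high cells (y axis) by annotated cluster of at least 20 resistant coculture cells, with 95% exact binomial intervals. Observed cells at 1 and 2 UMIs (927 and 95) lie near the even spread, 60 cells hold 10 or more, and FABP7-high cells are most frequent in clusters 3, 7 and 11.

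The 73 cells differed from the other resistant coculture cells in other measures too. In clusters 3, 4 and 7, which hold mostly sensitive cells, 20 of 91, 3 of 8 and 11 of 37 resistant coculture cells were FABP7-high. In clusters 8 and 12, also mostly sensitive, it was 0 of 9 and 0 of 1. It was 11 of 89 in cluster 11, 0 of 67 in cluster 9 and 0 of 55 in cluster 13. In the 6 clusters 0, 1, 2, 5, 6 and 10, the share was between 0.195% and 1.38%. MGP had a median of 18.7 UMIs per 10000 in the 73 cells against 48.0 in FABP7-low resistant coculture cells and 3.38 in FABP7-high sensitive coculture cells. The 73 cells were not uniform in it, with a 10th to 90th percentile of 2.39 to 61.9, 29 of them under 10 per 10000 and 44 at 10 or more (60.3%, against 82.3% of FABP7-low resistant coculture cells). The sum of 13 other genes with at most 10% of their sensitive level in resistant monoculture was at 195 CPM (179 to 213) in the 73 cells, 48.5 CPM in FABP7-low resistant coculture cells and 284 CPM in FABP7-high sensitive coculture cells. A doublet score over 0.25 was found for 20 of the 73 (27.4%), against 3.97% of the others, and their median depth was 36218 UMIs against 30624. Their median mitochondrial share was 18.9% against 15.2%. The chromosome 9 share had a median of 3.64% in the 73 cells and 3.90% in the others, and lay below 3.8% in 49 of the 73 (67.1%) and in 36.8% of the others. At least 2 mCherry UMIs were found in 39.7% of them and in 62.8% of the others, and the FABP7-high share was 1.86%, 0.967% and 0.345% at 1, 2 to 3 and 4 or more mCherry UMIs. With the label at 2 or more UMIs 29 cells remained, with a doublet score of at most 0.25 there were 53, and outside clusters 3, 4, 7, 8 and 12 there were 39. Each of these filters was applied alone. Of the 34 FABP7-high cells in those clusters, 32.4% held at least 2 mCherry UMIs, against 46.2% of the 39 outside them. The label and cluster filters thus took out many of the same cells. A doublet score over 0.25 was found for 5 of 44 FABP7-high cells at 1 mCherry UMI, 10 of 24 at 2 to 3 and 5 of 5 at 4 or more. Of the 39 cells outside those clusters, 14 (35.9%) had such a score. Droplets of 2 cells, cells given the other lineage's label and resistant cells that express FABP7 cannot be told apart here for a single cell. The share was alike in G1, S and G2M cells, at 37 of 3125, 19 of 1627 and 17 of 1540 cells.

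FABP7 was set beside other genes nearly confined to sensitive cells, by the apparent percent of sensitive-cell RNA in all resistant coculture cells: their CPM over that of sensitive coculture cells, each less the resistant monoculture CPM. It was 4.73% (4.55 to 4.91) for FABP7, with 1544 of the 2881 UMIs from the 73 FABP7-high cells. It was 2.07% without those 73 cells and 0.766% without the 596 cells at or above the median of sensitive coculture cells. These latter values are lowered by the choice of cells on FABP7 itself. The 3 other genes at 20 CPM or more in sensitive monoculture and at most 2% of that in resistant monoculture were LINC02303 with 5.23% (4.64 to 5.86), COL3A1 with 10.5% (9.40 to 11.6) and CLEC3A with 11.1% (8.48 to 13.9). The intervals of FABP7 and LINC02303 overlapped, and those of COL3A1 and CLEC3A lay above both. Of the 324 LINC02303 UMIs, 48 came from the 73 cells. Without those cells, which were not chosen on these 3 genes, LINC02303 was at 4.47%, COL3A1 at 8.42% and CLEC3A at 9.76%. Among the 10 further genes with up to 10% of their sensitive level in resistant monoculture, the value ran from -1.01% for SCGB2A2 to 34.4% for SLC7A8. The source of the low FABP7 counts in resistant cells was not tested.

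Resistant monoculture cells were grown with no sensitive cell. Of 7557 cells 135 held FABP7 UMIs, 122 of them a single one, and 3 were FABP7-high (0.0397%, 0.00819 to 0.116). The 4 cells with 5 or more UMIs held 6, 7, 28 and 36. The cell with 36 lay in cluster 4 and had 1.51 MGP UMIs per 10000, and the other 3 had between 31.9 and 71.4. None of the 135 shared its barcode with another library. Sharing was rare, with 23 of the 7422 cells at 0 sharing one with the sensitive monoculture, so its absence in 135 cells says little. Over all barcodes, annotated or not, the resistant monoculture library shared 34 with the sensitive monoculture and 60 with the coculture. Those 34 held 1 FABP7 UMI in the resistant monoculture library. In S and G2M cells no FABP7-high cell was found in 3776, which allows a share of up to 0.0794% by 3 counts of the total and 0.0976% by the exact binomial interval.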

How the data were processed

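CAMA-1 cells from 3 libraries, 1 per condition, were measured by 3′ single-cell RNA-seq. Per the labels, the authors used Cell Ranger 3.0.2 and GRCh37. The deposited values are raw UMI counts per gene and barcode, of which 173405094 to 519475237 per library carry a gene symbol. The UMIs of entries without a symbol (0.523% to 0.591%) were left out. In the deposited annotation the authors gave each cell a mitochondrial percent, S and G2M scores with a phase, a cluster and a population, made with Seurat after filters on genes, UMIs and mitochondrial percent. Its other 8 columns were not used. The methods also describe a minimum of 2 label UMIs and removal of doublets with scrublet scores over 0.25, yet annotated cells with 0 or 1 label UMIs, and with scores over 0.25 as rebuilt here, are present.

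FABP7 UMIs were summed per population and divided by its total UMIs. Ratios are log2(CPM + 1) for genes with at least 50 UMIs over both populations, and a gene is counted as different from 2-fold on. Those between phases and of the FABP7 level in FABP7-high cells are on plain CPM. Intervals (Poisson and Clopper-Pearson, 95%) cover counting error only. No p-value is given, since each condition is 1 library. Genes were named by a rule: of each list those with the 3 largest ratios at 10 CPM or more, the 5 coding genes on each side of FABP7, genes nearly confined to sensitive cells, and those most like FABP7. Some list genes that the rule names are not reported here. ANGPTL4, PLIN5 and the chromosome 9 list genes were named after their values were seen. The limits for FABP7-high cells and for the chromosome 9 share, and the members and lists, were chosen with earlier results of these data known. Doublets were scored per library with scrublet (scanpy 1.11.5) and kept, and alternatives leave them out. Python 3.11.15, scipy 1.17.1 and, for TMM scaling only, edgeR 4.0.16 were used. The summing and ratios were tested on simulated data.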

Additional observations from a re-analysis of the deposited data

Results flagged for a closer look

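The log2 ratio of FABP7 in coculture over monoculture was -2.27 in sensitive and 3.09 in resistant cells. In resistant coculture cells 927 of the 1147 positive cells held 1 UMI, near an even spread fitted to the cells at 0. The 73 FABP7-high cells held 53.6% of the UMIs. So a difference within resistant cells and UMIs from sensitive cells in the same droplets cannot be told apart. Each is 1 library against another, so the difference between the lineages was not tested. Coculture barcodes that the authors did not annotate also held FABP7. It was at 132 CPM (128 to 137) in the 614 barcodes with UMIs of both labels, of which 16.3% were FABP7-high, and at 21.8 CPM (20.1 to 23.6) in the 1319 with mCherry alone, of which 2.50% were. The unannotated barcodes of the resistant monoculture were at 0.564 CPM (0.418 to 0.743).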

How the results depend on the processing

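No paired analysis was possible because each condition is 1 library and no result comes from a test between replicates. For the same reason no replicate could be left out. Of 118 alternatives over 26 results none reversed a direction, but shares and counts of cells or genes have no direction to reverse. Of the 118, 45 kept the value within a limit and 73 moved it further. That limit was the counting interval, or 1.5-fold for counts and for differences in chromosome 9 share. By origin, 79 were planned and 39 were chosen after seeing the data. Log2 ratios are given in the order sensitive coculture over monoculture, resistant over sensitive monoculture, resistant coculture over monoculture, and resistant over sensitive in coculture. With a pseudocount of 10 CPM they were -2.24, -7.03, 1.18 and -3.61, and with 0.1 CPM the last 3 were -10.59, 4.00 and -4.31. TMM scaling gave -2.25 for the first. G1 cells alone gave -2.16, -9.35 and 2.96 for the first 3. Cells with at least 2 transgene UMIs gave -2.37, -9.82, 2.78 and -4.68. A doublet score of at most 0.25 gave 2.91 and -4.43 for the last 2. Without the 10% of cells with the most UMIs they were -2.24, -9.50, 2.97 and -4.29, and as means over cells the first 2 were -2.23 and -9.50. Positive cells were 60.05% and 45.6% of sensitive and 3.50% and 0.172% of resistant cells (sensitive monoculture and coculture, then resistant coculture and monoculture) from 2 UMIs on, and 47.2%, 35.8%, 1.37% and 0.0529% from 5 on. Thinned to 5000 UMIs they were 54.3%, 35.9%, 4.12% and 0.357%, and thinned to 15000 they were 69.7%, 48.96%, 9.88% and 0.864%. The sensitive coculture share was 52.3% in G1 cells, and with at least 2 transgene UMIs the sensitive shares were 79.5% and 59.4%. Resistant coculture cells at the sensitive level numbered 96 by the median of sensitive monoculture cells and 217 with at least 2 transgene UMIs, and the 10th percentile of sensitive coculture cells is 0, so all 6292 passed. The apparent share of sensitive-cell RNA was 3.35% with at least 2 transgene UMIs, 4.04% with a doublet score of at most 0.25 and 0.766% without the 596 cells at or above the median of sensitive coculture cells. The log2 ratio of G2M over G1 was -0.22 in sensitive monoculture and -0.56 in coculture, and with S and G2M pooled -0.060 and -0.26. At 1.5-fold 14 list genes differed between sensitive populations, 23 between monocultures and 12 within the coculture, with the shares of all genes given above, against 4, 9 and 1 at 2-fold. With limits of 1, 3 and 5 per 10000, FABP7-high cells were 52.4%, 45.03% and 41.5% of sensitive monoculture and 38.8%, 24.5% and 16.7% of sensitive coculture, and the log2 ratio of their levels was -1.88, -1.53 and -1.26. In G1 cells the monoculture share was 44.5% and that ratio -1.60. Of the 73 resistant coculture cells, with each change made alone, 29 remained by the limit of 5 per 10000, 29 with at least 2 transgene UMIs and 39 without clusters 3, 4, 7, 8 and 12. With chromosome 9 limits of 3.6% and 4.0%, FABP7-high cells at or above them were 28.3% and 17.4% in monoculture and 11.8% and 5.53% in coculture, and below them 78.8% at 3.6% in monoculture and 48.6% at 4.0% in coculture. Where no construction of the alternative shows it, the cause was not tested.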

Other observations

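SCGB2A2, the mammaglobin gene, was chosen after its values were seen, as the gene with the lowest ratio of FABP7-high to FABP7-low coculture cells among the 13 genes nearly confined to sensitive cells. In coculture it was at 0.643 CPM in FABP7-high and 48.2 CPM in FABP7-low sensitive cells, and in monoculture at 18.9 and 39.6 CPM. It was carried by few cells: 24 monoculture cells and 14 coculture cells held 5 or more of its UMIs, and 21 and 13 of these lay at or above the chromosome 9 limit of 3.8%, as did 53.8% and 47.0% of all cells of these populations. Summed, SCGB2A2 was at 45.1 CPM at or above the limit and 13.4 CPM below it in monoculture, and at 42.8 and 24.2 CPM in coculture, where 1 of the 34 positive cells below the limit held 5 or more.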
